A study of Homo sapiens with 12 samples.

Results

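SAHA (vorinostat) is a hydroxamic acid drug that inhibits the zinc-dependent histone deacetylases. The comparison described here is of MDA-MB-468 cells given 10 µM SAHA for 12 h with control cells of the same line, neither of them given sonidegib. MDA-MB-468 is an established human breast cancer line without oestrogen and progesterone receptors or amplified ERBB2, the class called triple-negative. The 3 SAHA and 3 control libraries are 6 of the 12 RNA-seq libraries of the series; the other 6 came from cells given sonidegib, an inhibitor of the Hedgehog signal transducer Smoothened, at 10 µM for 72 h, alone or before SAHA. The labels give no vehicle for the control and no time for which control cells were kept. Nor is it said whether replicates were grown as separate cultures; a p-value here sets a difference against the spread among the libraries at hand, and that spread may be technical. Of 59324 genes in the table, the 13937 that averaged at least 1 TPM across the 12 libraries were compared. TPM is a length-corrected share of all transcripts and holds no read counts; how deeply each library was sequenced is therefore unknown.

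Histone deacetylases remove acetyl groups from lysines of histone tails and of many other proteins. When they are inhibited, acetyl groups build up on chromatin, where bromodomain proteins read them and hand on the signal to the machinery that starts and elongates transcripts. Inhibitors of this kind are known to raise some genes and lower others in the same cells, to stop the cell cycle and, in many tumour lines, to cause cell death. The gene that encodes the cyclin-dependent kinase inhibitor p21, CDKN1A, is the best known of those that rise.

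The libraries resembled their own group more than the other. Pearson's r of log2(TPM + 1) over the tested genes was 0.977 to 0.98 within the groups and 0.924 to 0.929 between them. Between 20125 and 20491 genes were above 0 in the control libraries and between 21269 and 21402 in the SAHA libraries. Mitochondrial rRNA made up 0.565 to 0.67% of TPM in the control and 1.18 to 1.35% in the SAHA libraries, mitochondrial mRNA 6.32 to 7.59% and 8.83 to 10.4%, and ribosomal protein mRNA 20 to 21% and 17.7 to 18.1%. Leaving out the mitochondrial and rRNA genes moved the median log2 change of all genes from 0.045 to 0.094; the part of ribosomal protein mRNA in the results was not tested. All 8 epithelial and line markers passed the filter, with a summed level of 6755 to 7336 TPM in the control and 6635 to 6946 TPM in the SAHA libraries. ESR1, the oestrogen receptor, was listed at 0.72, 0.77 and 1.22 TPM in the control and 0.23, 0.26 and 0.4 TPM in the SAHA libraries, and PGR, the progesterone receptor, at 0 in all 6, both below the filter. SMAD4, which MDA-MB-468 is known to have lost, was at no more than 0.15 TPM in any of the 6 libraries. The 8 leukocyte markers summed to 301 to 326 TPM in the control and 310 to 346 TPM in the SAHA libraries, nearly all of it CD14, while 3 and 2 of the 8 were at 0 in all libraries of the group. The 8 fibroblast markers summed to 7.82 to 11.1 and 12.4 to 15.3 TPM, and the 4 endothelial markers to 4.01 to 5.01 and 4.89 to 5.83 TPM. The 4 erythroid and hepatic markers summed to 0 to 0.15 TPM in the control and 2.85 to 3.2 TPM in the SAHA libraries, through HBA1, a haemoglobin chain, at 0 in all 3 control libraries and at 2.97, 2.7 and 3.2 TPM with SAHA.

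SAHA raised or lowered 58.7% of the tested genes. Of the 13937 genes, 4430 (31.8%) were higher and 3746 (26.9%) lower with SAHA at an adjusted p under 0.05 (limma on log2(TPM + 1), two-sided, Benjamini-Hochberg over all tested genes); a gene said below to have risen or fallen passed this test, and log2 changes are differences of log2(TPM + 1), SAHA minus control, ± SE of the fit. Without a correction, 8696 genes had a p under 0.05. The calls hold many small differences, since the median SE of a log2 change was 0.124. At least 2-fold on this scale, 1213 genes (8.7%) were higher and 800 (5.74%) lower. All 3 SAHA libraries were above all 3 control libraries for 4781 genes (34.3%) and below them for 4090 (29.3%). The median log2 change of all tested genes was 0.045. Adding 1 TPM before taking logarithms understates the change of low genes. The filter over all 12 libraries let in 901 genes with a control mean under 1 TPM, of which 139 were listed at 0 in every control library, and 605 with a SAHA mean under 1 TPM. It left out 463 genes with a SAHA mean of at least 1 TPM and 332 with such a control mean.

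**Figure D1:**
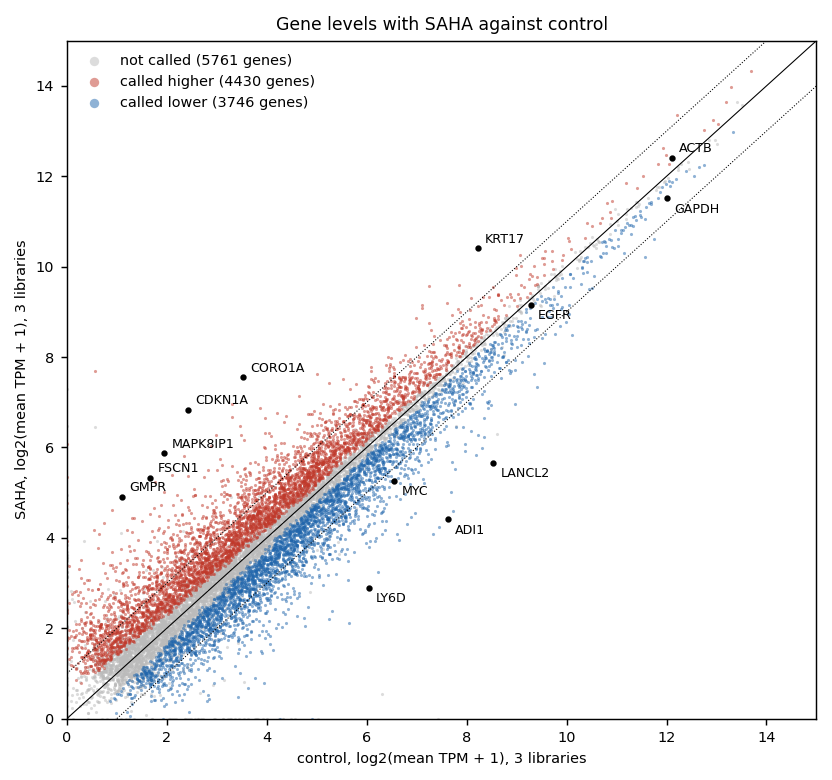
Log2 of the mean TPM + 1 of each of the 13937 tested genes in the 3 control libraries (horizontal) and the 3 SAHA libraries (vertical), coloured by call, with a solid line at equal levels and dotted lines at 2-fold differences. The 4430 genes called higher lie above the diagonal and the 3746 called lower below it, and the labelled genes are named in the text.

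Genes were also sorted by level, using their mean in the 3 sonidegib libraries, which are outside the contrast but count in the filter and in the spread of the fit. The 508 genes under 1 TPM there passed the filter only through other groups, SAHA among them, and are left out of these shares. Among the 3853 genes from 1 to 5 TPM, 26.9% rose and 17.3% fell; genes near the filter can still have passed through the group where they are high. Among the 4747 genes from 5 to 20 TPM, 32.4% rose and 27.6% fell. Among the 3633 genes from 20 to 100 TPM the shares were 35.5% and 34.6%, and among the 1196 genes of at least 100 TPM they were 31.8% and 39.7%. The share called at least 2-fold higher went from 9.55% in the lowest of these classes to 3.26% in the highest, and the share called at least 2-fold lower went from 4.28% through 6.3% and 6.8% to 5.69%. Of 11995 protein-coding genes, 34.2% rose and 28.9% fell, against 19.8% and 16.8% of 998 long non-coding RNA genes and 15% and 16.5% of 448 pseudogenes. All 13 mitochondrially encoded mRNAs rose, with a median log2 change of 0.46, as shares of all transcripts.

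CDKN1A showed the largest rise in log2(TPM + 1) of all protein-coding genes that met the naming rule. It was measured at 3.58, 4.32 and 5.24 TPM in the control and 114, 115 and 110.1 TPM in the SAHA libraries. The groups did not overlap, as the naming rule requires. The mean in SAHA was 25.8 times the control mean, a log2 change of 4.42 ± 0.10 (limma, adjusted p = 1.51e-10). By that ratio TUBB4A (37.7), ROPN1L (28.04), NRGN (27.96) and ACTBL2 (26.9), all with control means under 1 TPM, rose more. CORO1A, an actin-binding coronin best known from leukocytes, was measured at 9.18, 12.5 and 10.1 TPM in the control and 174, 204 and 184 TPM in the SAHA libraries, a log2 change of 4.03 ± 0.13. MAPK8IP1, a scaffold of the JNK kinase cascade found mainly in neurons and islet cells, had 2.96, 2.3 and 3.31 TPM in the control and 59.8, 61.6 and 50.6 TPM in the SAHA libraries, a log2 change of 3.92 ± 0.10. GMPR, which converts GMP back to IMP, was at 1, 1.02 and 1.43 TPM in the control and 28.9, 27.4 and 31.1 TPM in the SAHA libraries, a log2 change of 3.81 ± 0.10. For each of these genes the lowest SAHA library was several times the highest control library. FSCN1, the actin-bundling protein fascin, was at 1.96, 2.24 and 2.32 TPM in the control and 37.1, 42.9 and 37.7 TPM in the SAHA libraries, a log2 change of 3.66 ± 0.083. KCTD17, a substrate adaptor of cullin-3 ubiquitin ligases, was at 2.08, 2.38 and 2.67 TPM in the control and 38.1, 35.9 and 36.05 TPM in the SAHA libraries, a log2 change of 3.48 ± 0.089. The others of the 12 largest rises had log2 changes of 3.71 (ACTBL2, an actin), 3.66 (TUBB2B) and 3.65 (TUBB4A, both beta-tubulins), 3.58 (ROPN1L, a protein of the sperm fibrous sheath), 3.49 (RTBDN, a retinal flavin-binding protein) and 3.42 (NRGN, neurogranin, a calmodulin-binding protein of synapses). Actins and tubulins have near-identical copies between which reads can be split, so the level of a single copy is uncertain.

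The promoters of 2 of these genes are shown because GGGCGG, the GC box bound by SP1-family factors, recurs in them, and those of 2 cell cycle genes that fell because they hold TTTNGCGC, an E2F-type motif. Sequences are the 250 bases before the RefSeq start on GRCh38.p14, read 5′ to 3′ along the gene's strand, with the motif in capitals on either strand: GGGCGG, or its reverse complement, in CDKN1A (chr6:36678464-36678713, plus strand) and KCTD17 (chr22:37051492-37051741, plus strand), and TTTNGCGC, or its reverse complement, in E2F2 (chr1:23531234-23531483, minus strand) and CDC25A (chr3:48188418-48188667, minus strand).
CDKN1A: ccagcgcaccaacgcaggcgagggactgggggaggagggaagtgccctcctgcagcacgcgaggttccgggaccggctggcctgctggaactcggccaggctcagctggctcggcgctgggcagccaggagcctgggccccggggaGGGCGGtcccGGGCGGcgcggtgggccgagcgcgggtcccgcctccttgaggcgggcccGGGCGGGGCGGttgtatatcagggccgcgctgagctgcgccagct
KCTD17: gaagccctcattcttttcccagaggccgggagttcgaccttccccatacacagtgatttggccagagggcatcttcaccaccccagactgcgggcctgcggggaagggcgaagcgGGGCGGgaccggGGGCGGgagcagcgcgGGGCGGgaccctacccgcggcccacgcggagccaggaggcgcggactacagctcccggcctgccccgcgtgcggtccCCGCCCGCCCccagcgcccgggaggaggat
E2F2: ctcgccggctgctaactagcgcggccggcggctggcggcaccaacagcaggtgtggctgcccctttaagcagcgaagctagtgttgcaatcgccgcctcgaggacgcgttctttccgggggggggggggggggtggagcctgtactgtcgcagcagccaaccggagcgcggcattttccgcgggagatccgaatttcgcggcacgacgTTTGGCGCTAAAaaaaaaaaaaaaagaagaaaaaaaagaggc
CDC25A: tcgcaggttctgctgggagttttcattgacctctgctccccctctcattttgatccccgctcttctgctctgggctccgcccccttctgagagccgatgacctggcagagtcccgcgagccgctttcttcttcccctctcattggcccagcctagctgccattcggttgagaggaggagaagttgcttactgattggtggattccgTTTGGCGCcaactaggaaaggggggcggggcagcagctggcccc
Counting overlapping matches on both strands, GGGCGG occurs 4 times in the CDKN1A window and 5 times in that of KCTD17, and TTTNGCGC occurs 2 times in the E2F2 window, where the matches overlap, and 1 time in that of CDC25A, which also holds 2 copies of GGGCGG left in lower case. A RefSeq promoter of a single start was at hand for 6874 tested protein-coding genes. At least 3 copies of GGGCGG were present in 42.4% of the 590 genes at least 2-fold higher, 19.7% of the 370 at least 2-fold lower and 27.2% of all 6874; at least 1 copy was present in 83.4%, 63.5% and 71.7%. The median GC content of the windows was 68.4%, 64.8% and 65.6% in the same order, and a GC-rich window holds more copies by composition alone. TTTNGCGC was present in 0.847% of the genes that rose at least 2-fold, 5.68% of those that fell and 2.78% of all. The shares with CCAAT, the box bound by NF-Y, were 39.7%, 37.6% and 37%. CACGTG, an E-box, stood in 8.64%, 10.8% and 9.46%, TATAAA in 6.95%, 6.76% and 4.82%, TGANTCA, an AP-1 motif, in 3.9%, 3.78% and 3.52%, and TGACGTCA, a cyclic AMP response element, in 3.56%, 2.7% and 3.36%. A match is a description of the letters and not of a bound site.

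OLFM4, the secreted glycoprotein olfactomedin 4, showed the largest fall in log2(TPM + 1) by the same rule. It was at 155, 156 and 169.6 TPM in the control and 16.7, 14 and 17.1 TPM in the SAHA libraries, a log2 change of -3.25 ± 0.10 (limma, adjusted p = 8.53e-10). Its control mean was 10.05 times its SAHA mean, and that ratio was larger for C1orf53 (14.5). ADI1, the acireductone dioxygenase of the methionine salvage pathway, was abundant in the control, at 191, 204 and 191 TPM in the control and 19.3, 20.7 and 20.8 TPM in the SAHA libraries, a log2 change of -3.21 ± 0.067. MMP7, the matrix protease matrilysin, was at 129, 183 and 208 TPM in the control and 17.4, 16.4 and 20.03 TPM in the SAHA libraries, a log2 change of -3.18 ± 0.14. In all of these genes the groups did not overlap, as the naming rule requires. LY6D, a GPI-anchored surface protein of keratinocytes, was at 72.7, 61.7 and 59.6 TPM in the control and 6.74, 6.8 and 5.82 TPM in the SAHA libraries, a log2 change of -3.14 ± 0.10. GAL, which encodes the neuropeptide galanin, was at 25.1, 26.6 and 27.3 TPM in the control and 3.02, 2.17 and 4.29 TPM in the SAHA libraries, a log2 change of -2.75 ± 0.18. SERPINH1, the collagen chaperone HSP47, was at 107, 102 and 88.3 TPM in the control and 14.2, 15.8 and 13.4 TPM in the SAHA libraries, a log2 change of -2.69 ± 0.10. NEURL3 (a ubiquitin ligase), ALPP (placental alkaline phosphatase, which has near-identical copies), GLYATL2 (a glycine acyltransferase) and C1orf53 fell by between 2.84 and 3.12 on the log2 scale. LANCL2 lies at chr7:55365448-55433742 (GRCh38), beside EGFR at chr7:55019021-55211628. LANCL2 was at 387, 382 and 339.5 TPM in the control and 49.3, 47.9 and 51.1 TPM in the SAHA libraries, a log2 change of -2.88 ± 0.060, while EGFR was at 647, 558 and 664 TPM in the control and 605, 516 and 585 TPM in the SAHA libraries and did not pass the test (-0.13 ± 0.084, adjusted p = 0.208). EGFR was called lower after scaling by the median of ratios or by the 75th percentile, at log2 changes of -0.20 and -0.20 (limma, adjusted p = 0.022 and 0.0316). USP41, which resembles USP18 closely enough to share reads, was variable, at 33.2, 20.9 and 15.8 TPM in the control and 0, 2.69 and 8.72 TPM in the SAHA libraries, a log2 change of -2.82 ± 1.03 (adjusted p = 0.0345), and was not called in 10 of 18 alternative analyses.

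**Figure D2:**
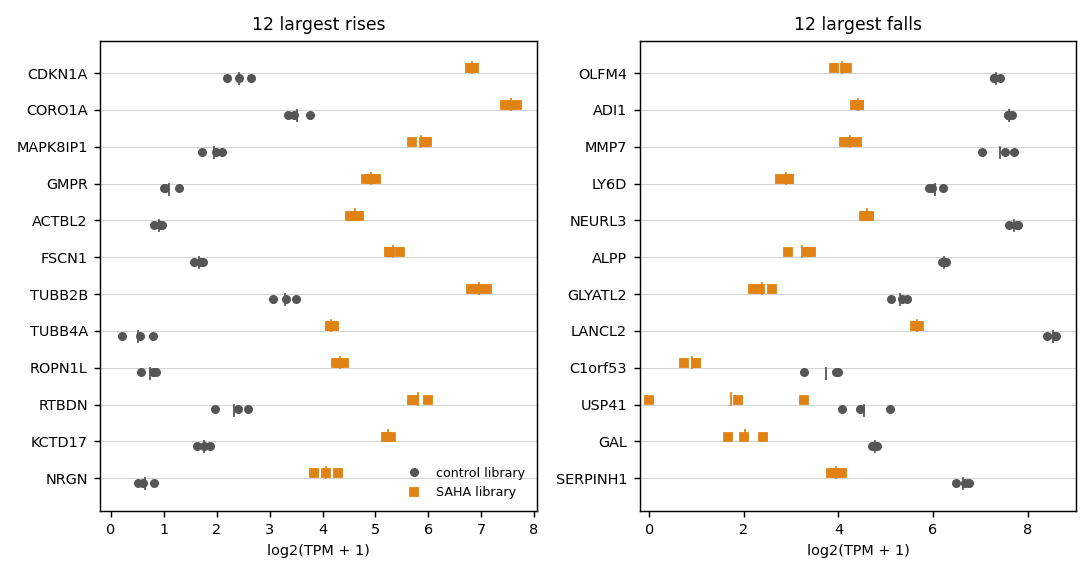
Log2(TPM + 1) in each control library (circles) and SAHA library (squares), with the group means as ticks, for the 12 genes with the largest rises and the 12 with the largest falls. The SAHA libraries lie apart from the control libraries in every gene drawn, as the naming rule requires, and USP41 has the widest spread within a group.

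Genes long known to respond to inhibitors of this class moved both ways. Of 11 tested, 5 rose and 5 fell, with a median log2 change of 0.21. That median went from -0.39 (genes averaging 5 TPM or more) to 0.72 (pseudocount 0.1) in the alternatives. Over all tested genes 31.8% rose and 26.9% fell, with a median of 0.045, the background for the lists that follow. The lists and their members were chosen with earlier results of these data known. A list's distance from these shares is therefore a description and no independent result. Some lists hold members with a control mean under 1 TPM, which passed the filter through other groups. Beside CDKN1A, H1F0, the replacement linker histone H1.0, was at 61.8, 63.8 and 75.5 TPM in the control and 200.3, 196 and 217 TPM in the SAHA libraries, a log2 change of 1.6 ± 0.070. DHRS2, a short-chain dehydrogenase known from hepatoma cells treated with such drugs, was at 0.37, 0.61 and 0.34 TPM in the control and 3.19, 2.74 and 3.59 TPM in the SAHA libraries, a log2 change of 1.53 ± 0.18. Both were higher in every SAHA library. GSN, the actin-severing protein gelsolin, went from 85.5 ± 2.27 TPM in the control to 158 ± 8.36 TPM with SAHA (mean ± SD, n = 3), a log2 change of 0.87 ± 0.049. TYMS, the thymidylate synthase that 5-fluorouracil targets, was at 109.7, 126 and 136 TPM in the control and 25.8, 20.5 and 20.7 TPM in the SAHA libraries, a log2 change of -2.42 ± 0.092 (adjusted p = 3.5e-09). The transcription factor MYC went from 92.7 ± 11.2 TPM in the control to 37.4 ± 3 TPM with SAHA, and CTPS1, which makes CTP, from 109 ± 10.02 TPM in the control to 51.2 ± 4.18 TPM with SAHA (mean ± SD, n = 3), log2 changes of -1.28 ± 0.091 and -1.07 ± 0.075. TXNIP, a thioredoxin inhibitor that these drugs raise in other cells, was below the filter, at no more than 0.05 TPM in any of the 6 libraries.

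Transcripts of the chromatin machinery fell more often than they rose in 5 of the 6 groups listed. Over all tested genes 26.9% fell. The share was 65% for SWI/SNF and 51.5% for lysine methyltransferases and demethylases. It was nearer that of all genes for corepressor subunits (32.4%), DNA methylation and Polycomb (34.5%) and readers and elongation factors (38.1%). In the group of readers and elongation factors the counts were even without control 3, SAHA 2 or SAHA 3. For the SWI/SNF remodelling complexes, 13 of 20 tested members fell and 3 rose, with a median log2 change of -0.50. SMARCB1, a core subunit lost in rhabdoid tumours, was at 123, 116 and 108 TPM in the control and 38.5, 33.8 and 34.9 TPM in the SAHA libraries, a log2 change of -1.67 ± 0.071. BRD9, which defines the non-canonical complex, and ARID1A, the DNA-binding subunit of the BAF form, changed by -1.2 ± 0.097 and -1.09 ± 0.099. The 3 that rose included SMARCD3 (2.12 ± 0.15) and DPF1 (1.76 ± 0.14), subunits of the forms found in muscle, heart and nerve cells. Of 33 lysine methyltransferases and demethylases, 17 fell and 7 rose (median -0.38), from KDM2B (-1.31), a demethylase that recruits Polycomb to CpG islands, to KDM4B (0.87), a demethylase of histone H3 lysine 9. Of 29 genes of DNA methylation and Polycomb repression, 10 fell and 6 rose (median -0.04). UHRF1, which brings the maintenance methyltransferase to replicating DNA, was at 17.7, 20.6 and 23.5 TPM in the control and 4.35, 4.48 and 4.39 TPM in the SAHA libraries, a log2 change of -1.99 ± 0.12. PHF19, a Polycomb cofactor, and DNMT3A, a de novo DNA methyltransferase, changed by -1.88 ± 0.13 and -1.77 ± 0.11, and JARID2, another Polycomb cofactor, by 1.11 ± 0.085.

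Of 34 subunits and partners of the deacetylase corepressor complexes, 11 fell and 8 rose, with a median of -0.10. The falls were led by the NuRD subunits MBD3 (-1.42 ± 0.073), CHD3 (-1.23 ± 0.091) and MTA1 (-1.15 ± 0.080), and the rises by RCOR2 (1.23 ± 0.13), of the CoREST complex, and GPS2 (1.23 ± 0.060), of the NCoR complex. Among 21 readers and elongation factors, 8 fell and 6 rose (median -0.13). MEPCE caps and LARP7 holds the 7SK RNA, which keeps the elongation kinase P-TEFb inactive. MEPCE was at 65.8, 67.9 and 61.7 TPM in the control and 12.3, 13.4 and 12.7 TPM in the SAHA libraries, a log2 change of -2.26 ± 0.063. LARP7 was at 10.8, 12.7 and 14.5 TPM in the control and 5.6, 3.31 and 5.96 TPM in the SAHA libraries, a log2 change of -1.22 ± 0.18. Both were lower in every SAHA library. HEXIM1, the protein that inhibits P-TEFb on that RNA, changed by -0.39 ± 0.12 and lost its call without control 3 (adjusted p = 0.0552). AFF1, a scaffold of the super elongation complex, changed by 0.94 ± 0.15. Of 18 linker and variant histones, 8 rose and 6 fell (median -0.07). H2AFY2, macroH2A2, had the largest fall of this list, at 10.8, 12.1 and 12.4 TPM in the control and 1.91, 1.75 and 1.69 TPM in the SAHA libraries, a log2 change of -2.19 ± 0.12. H2B genes such as HIST1H2BD (0.75) and HIST1H2BK (-1.41) are near-copies of each other and moved in opposite directions.

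**Figure D3:**
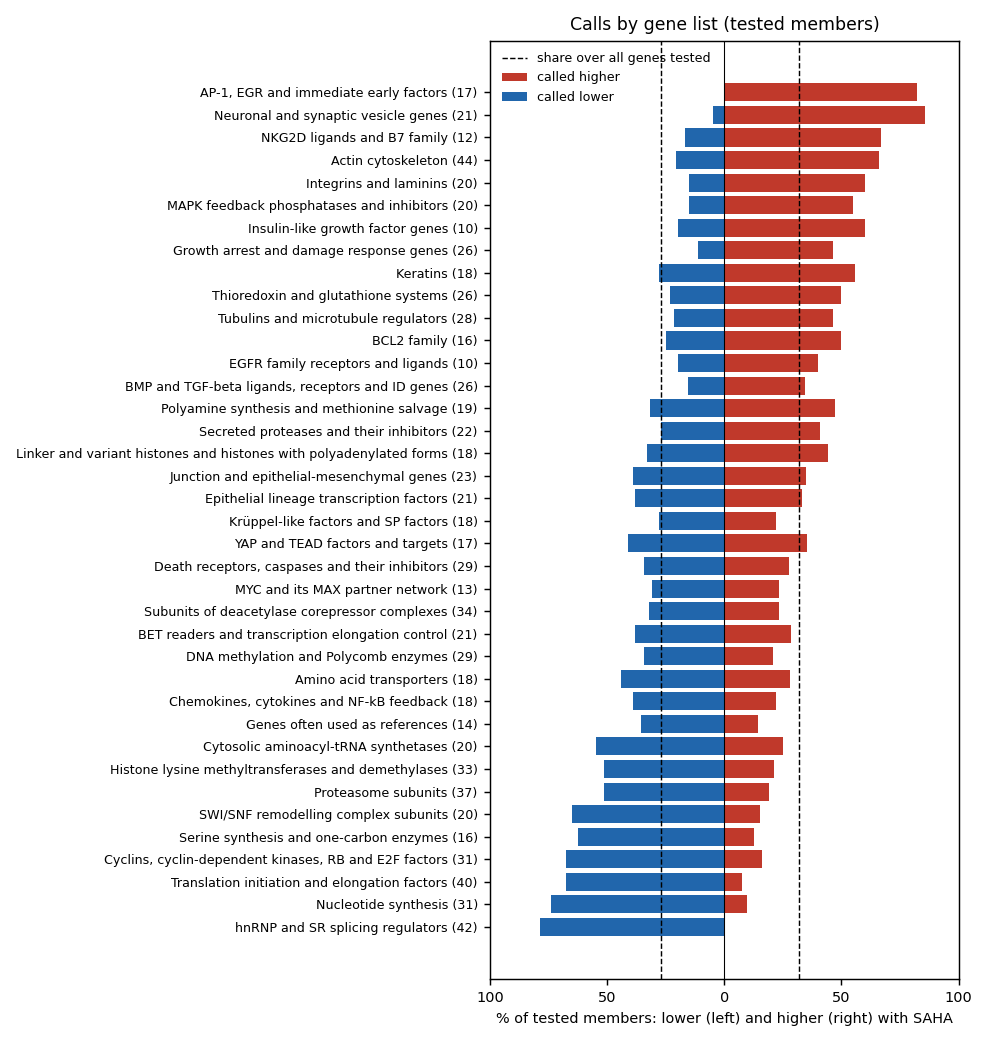
Share of the tested members of each gene group called higher (right) and lower (left) with SAHA, with dashed lines at the shares over all tested genes, 31.8% and 26.9%. Splicing regulators and nucleotide synthesis have the long bars to the left, and the immediate-early and neuronal groups those to the right. Of the 21 neuronal genes tested, 6 had a control mean under 1 TPM and passed the filter through other groups.

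Transcripts of the cell cycle engine fell. Of 31 tested cyclins, cyclin-dependent kinases, CDC25 phosphatases and E2F factors, 21 fell and 5 rose, with a median of -0.64. CDC25A, the phosphatase that activates CDK2, was at 13.2, 13.9 and 12.8 TPM in the control and 4.15, 2.75 and 3.51 TPM in the SAHA libraries, a log2 change of -1.69 ± 0.18. E2F2, an activator of S phase genes, was at 15.2, 15.3 and 17.7 TPM in the control and 4.66, 6.76 and 5.29 TPM in the SAHA libraries, a log2 change of -1.39 ± 0.16. TFDP1, the partner of the E2F proteins, was at 128, 136 and 139 TPM in the control and 48.7, 46.2 and 48.6 TPM in the SAHA libraries, a log2 change of -1.47 ± 0.099. None of the 3 overlapped between groups. CCND3, a D-type cyclin, and CCNH with CDK7, which form the CDK-activating kinase, rose, by 1.42, 0.89 and 0.54. CCND1, cyclin D1, was at 70.8 ± 3.74 TPM in the control and 37.2 ± 4.3 TPM with SAHA (mean ± SD, n = 3), a log2 change of -0.91 ± 0.098 (adjusted p = 9.66e-06).

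Enzymes of nucleotide synthesis fell as well. Of 31 tested genes of nucleotide synthesis, 23 fell and 3 rose (median -0.67). Besides TYMS, DUT, which removes dUTP, went from 48.2 ± 4.72 TPM in the control to 17.4 ± 3.51 TPM with SAHA, and RRM2, the small subunit of ribonucleotide reductase, from 131 ± 10.9 TPM in the control to 50.6 ± 1.63 TPM with SAHA (mean ± SD, n = 3), log2 changes of -1.44 ± 0.13 and -1.35 ± 0.069. The rises were GMPR, RRM2B (0.88 ± 0.13), another form of the small subunit, and PRPS1 (0.34 ± 0.065), which makes the ribose donor. Of 16 genes of one-carbon metabolism, 10 fell and 2 rose (median -0.47), the largest fall being MTHFD1L, a mitochondrial folate enzyme (-1.21 ± 0.088). The enzymes around methionine salvage and polyamines were divided, with 9 of 19 higher and 6 lower (median 0.14). ADI1, SRM (spermidine synthase, -1.3 ± 0.088) and APIP (a salvage dehydratase, -0.79 ± 0.099) fell, while SMOX, the spermine oxidase, and OAZ2, an antizyme that targets ornithine decarboxylase for degradation, rose by 1.37 and 1.03 on the log2 scale. Of 18 amino acid transporters 5 rose and 8 fell (median -0.17), led by SLC36A1, a lysosomal transporter (1.72 ± 0.11), and SLC6A9, a glycine transporter (-1.66 ± 0.059).

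Genes of growth arrest and the damage response rose more often than they fell, with 12 of 26 tested members higher, 3 lower and a median of 0.34. Of the 26, 3 had a control mean under 1 TPM and passed the filter through other groups. Among genes averaging 5 TPM or more, 7 rose and 3 fell (median 0.16). GADD45A, a growth arrest protein, was at 17.4, 16.6 and 17.5 TPM in the control and 52, 43.3 and 59.3 TPM in the SAHA libraries, a log2 change of 1.52 ± 0.12, and PLK3, a stress kinase, changed by 1.1 ± 0.14. BBC3, the cell death protein PUMA, was among the falls (-0.85 ± 0.18), and MDM2, a ubiquitin ligase, was at 10.97 ± 0.379 TPM in the control and 8.99 ± 2.17 TPM with SAHA (mean ± SD, n = 3) and was not called (-0.29 ± 0.23, adjusted p = 0.318). In the MYC network of 13 tested genes, 3 rose and 4 fell (median 0.1), and 2 of the 13 had a control mean under 1 TPM. MYC and MYCN fell (-1.28 ± 0.091 and -1.43 ± 0.12), while MAX, the shared dimer partner, and MYCL rose (1.21 ± 0.13 and 1.63 ± 0.19).

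No splicing regulator rose in the main analysis. Of 42 tested members, 33 fell and 9 did not pass, with a median of -0.73. With no filter on low values, without mitochondrial and rRNA genes or without SAHA 2, 1 member was called higher. HNRNPL, which binds CA-rich RNA, was at 324, 345 and 341 TPM in the control and 128, 126 and 127 TPM in the SAHA libraries, a log2 change of -1.4 ± 0.055. SRSF4, an SR protein, was at 50.5, 54.1 and 56.1 TPM in the control and 21.9, 18.7 and 23.8 TPM in the SAHA libraries, a log2 change of -1.29 ± 0.083. HNRNPAB was at 534, 568 and 543 TPM in the control and 247, 231 and 233 TPM in the SAHA libraries, a log2 change of -1.21 ± 0.046. Of 40 translation factors, 27 fell and 3 rose (median -0.37). EIF4A1, the helicase of the initiation complex, was at 859, 896 and 853 TPM in the control and 347, 363 and 387 TPM in the SAHA libraries, a log2 change of -1.25 ± 0.044. EIF2S2, the beta subunit of the factor that carries the initiator tRNA, and EIF5A, the hypusine-bearing factor, changed by -1.23 ± 0.080 and -1.19 ± 0.049. The 3 rises were EIF2S1 (0.33), the alpha subunit of that factor, and its exchange factor subunits EIF2B4 (0.36) and EIF2B2 (0.58). Of 20 cytosolic tRNA synthetases, 11 fell and 5 rose (median -0.23), the largest fall being DARS, for aspartate (-1.33 ± 0.092). Of 37 proteasome genes, 19 fell and 7 rose (median -0.23). The immunoproteasome subunits PSMB9 and PSMB10 moved apart. PSMB9 was at 30.1, 32.7 and 35.7 TPM in the control and 62.1, 75.8 and 71.02 TPM in the SAHA libraries, a log2 change of 1.06 ± 0.090. PSMB10 was at 50.3, 58.1 and 51.8 TPM in the control and 22.04, 24.3 and 23.04 TPM in the SAHA libraries, a log2 change of -1.17 ± 0.073.

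Cytoskeletal genes moved in both directions. Of 44 tested actin-associated genes, 29 rose and 9 fell (median 0.49). After CORO1A and FSCN1, MYL9, a regulatory light chain of smooth muscle myosin, was at 3.66, 3.49 and 2.69 TPM in the control and 15.1, 15.8 and 13.5 TPM in the SAHA libraries, a log2 change of 1.89 ± 0.12. TAGLN, the actin-binding transgelin, fell, at 11.4, 10.6 and 9.81 TPM in the control and 2.6, 2.89 and 2.23 TPM in the SAHA libraries, a log2 change of -1.7 ± 0.23. PFN1, profilin, which feeds actin monomers to growing filaments, went from 1397 ± 152 TPM in the control to 721 ± 24.4 TPM with SAHA (mean ± SD, n = 3), a log2 change of -0.95 ± 0.068. Of 28 tubulins and microtubule proteins, 13 rose and 6 fell (median 0.17), with a division by isotype. TUBB2A, a beta-tubulin common in nerve cells, was at 9.09, 8.14 and 9.26 TPM in the control and 97.4, 103 and 104 TPM in the SAHA libraries, a log2 change of 3.38 ± 0.097. Its neighbour in sequence TUBB2B was at 8.94, 7.35 and 10.3 TPM in the control and 122, 137 and 111 TPM in the SAHA libraries. TUBA1B and TUBB, which most dividing cells express, went the other way. TUBA1B was at 1079, 1144 and 1097 TPM in the control and 357, 357 and 358 TPM in the SAHA libraries, a log2 change of -1.63 ± 0.043. TUBB was at 2364, 2291 and 2192 TPM in the control and 1245, 1276 and 1286 TPM in the SAHA libraries, a log2 change of -0.85 ± 0.046. Summed levels of the family cannot be read from single copies, which share much of their coding sequence.

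Many genes best known from nerve cells were weakly expressed here. Of 48 listed, 27 were below the filter; of the 21 tested, 6 had a control mean under 1 TPM and so passed through other groups, and 18 rose and 1 fell. MAPT, the microtubule protein tau, was at 1, 0.55 and 1.08 TPM in the control and 12.3, 11.1 and 12.5 TPM in the SAHA libraries, a log2 change of 2.79 ± 0.15. TUBB3, the beta-tubulin used as a neuronal marker, was at 14.7, 13.3 and 15.8 TPM in the control and 102, 101 and 97.4 TPM in the SAHA libraries, a log2 change of 2.7 ± 0.070. NEFH, the heavy neurofilament, was the 1 fall (-0.84 ± 0.079). REST, the repressor of neuronal genes, was at 5.98 ± 1.04 TPM in the control and 5 ± 1.02 TPM with SAHA (mean ± SD, n = 3), a log2 change of -0.22 ± 0.17 (adjusted p = 0.288).

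Keratins moved in both directions, 10 of 18 higher and 5 lower (median 0.28). KRT17, a keratin of basal and wounded epithelium, was at 333, 302 and 256 TPM in the control and 1290.3, 1473 and 1313 TPM in the SAHA libraries, a log2 change of 2.2 ± 0.090. KRT80 was at 29.7, 29.5 and 30.5 TPM in the control and 105, 119.6 and 107 TPM in the SAHA libraries, a log2 change of 1.85 ± 0.077. KRT6A, KRT6B and KRT6C, near-copies of each other, had log2 changes of -1.64, -2.22 and 1.5; KRT6C overlapped between groups and lost its call without control 2, control 3, SAHA 2 or SAHA 3. Of 20 integrins, laminins and other matrix receptors, 12 rose and 3 fell (median 0.46). LAMA3, a laminin chain of the epithelial basement membrane, was at 0.84, 0.93 and 0.71 TPM in the control and 4.19, 3.55 and 3.15 TPM in the SAHA libraries, a log2 change of 1.34 ± 0.17. CD44, the hyaluronan receptor, fell, from 1019.7 ± 23.3 TPM in the control to 438 ± 9.92 TPM with SAHA (mean ± SD, n = 3), a log2 change of -1.22 ± 0.040. Of 23 genes of junctions and mesenchymal transition, 8 rose and 9 fell (median -0.1). CDH1, E-cadherin, was at 20.9, 18.4 and 23.02 TPM in the control and 46.9, 44.6 and 49.3 TPM in the SAHA libraries, a log2 change of 1.14 ± 0.084. VIM, the mesenchymal filament vimentin, was at 105, 100.1 and 105 TPM in the control and 59.6, 59.3 and 60.9 TPM in the SAHA libraries, a log2 change of -0.78 ± 0.071. SNAI1, a repressor of CDH1, also rose (1.19 ± 0.12), and the desmosome genes PKP2 and DSC2 changed by 1.02 ± 0.11 and -1.58 ± 0.11.

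**Figure D4:**
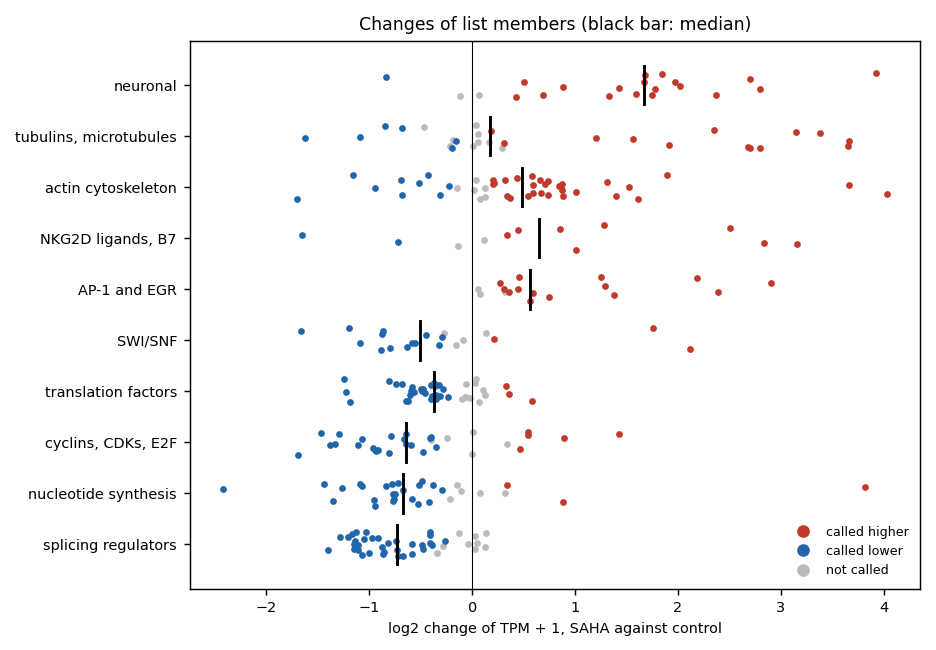
Log2 change of TPM + 1, SAHA minus control, of every tested member of selected gene groups, 1 point per gene, coloured by call. No splicing regulator is called higher, while tubulins and actin-associated genes spread on both sides with single members above 3.

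Transcription factors of epithelial lineages were divided, with 7 of 21 higher and 8 lower (median -0.15). SPDEF and FOXA1 are factors of the luminal programme. SPDEF was at 103, 94.8 and 92.9 TPM in the control and 14.7, 16.8 and 16.4 TPM in the SAHA libraries, a log2 change of -2.53 ± 0.071. FOXA1 was at 15.9, 15.4 and 19.6 TPM in the control and 4.18, 5.15 and 3.85 TPM in the SAHA libraries, a log2 change of -1.74 ± 0.12. XBP1, a factor of the secretory stress response, changed by -1.4 ± 0.059. KLF4 and GRHL3, factors of epidermal differentiation, rose. KLF4 was at 1.21, 1.21 and 1.07 TPM in the control and 6.78, 6.24 and 7.9 TPM in the SAHA libraries, a log2 change of 1.88 ± 0.12. GRHL3 was at 2.4, 1.76 and 4.47 TPM in the control and 8.69, 9.71 and 8.94 TPM in the SAHA libraries, a log2 change of 1.44 ± 0.19. In none of SPDEF, FOXA1, KLF4 and GRHL3 did the groups overlap. Immediate-early factors of the AP-1, EGR and NR4A families rose together, 14 of 17 tested, with no fall and a median of 0.56. NR4A1 was at 2.11, 2.74 and 2.25 TPM in the control and 21.4, 25.3 and 26.01 TPM in the SAHA libraries, a log2 change of 2.91 ± 0.13. EGR1 was at 2.65, 2.04 and 3 TPM in the control and 16.1, 18.9 and 17.6 TPM in the SAHA libraries, a log2 change of 2.39 ± 0.11. FOS was at 3.08, 2.3 and 3.06 TPM in the control and 16.2, 14.98 and 17.7 TPM in the SAHA libraries, a log2 change of 2.19 ± 0.12. Of 10 EGFR family ligands and receptors 4 rose and 2 fell (median 0.24), and 2 of the 10 had a control mean under 1 TPM. AREG, amphiregulin, was at 0.95, 2.18 and 1.48 TPM in the control and 20.4, 19.4 and 21.96 TPM in the SAHA libraries, a log2 change of 3.11 ± 0.22. HBEGF, another ligand, was at 0.63, 1.13 and 1.2 TPM in the control and 5.23, 6.05 and 6.23 TPM in the SAHA libraries, a log2 change of 1.79 ± 0.13. The receptors ERBB2 and ERBB3 fell (-1.22 ± 0.13 and -0.85 ± 0.096). Of 20 MAPK feedback genes 11 rose and 3 fell (median 0.31). DUSP5, a nuclear phosphatase that inactivates ERK, was at 9.29, 11.2 and 11.7 TPM in the control and 45.1, 45.1 and 47.1 TPM in the SAHA libraries, a log2 change of 2.0 ± 0.11.

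Among 17 YAP and TEAD genes, 6 rose and 7 fell (median -0.21). CCN1 and CCN2 are matricellular targets of YAP. CCN1 was at 41.3, 47.8 and 46.8 TPM in the control and 173, 189 and 181 TPM in the SAHA libraries, a log2 change of 1.98 ± 0.11. CCN2 was at 6.43, 7.27 and 6.92 TPM in the control and 75.3, 76.9 and 75.6 TPM in the SAHA libraries, a log2 change of 3.29 ± 0.12. YAP1 itself and TEAD4, its DNA-binding partner, fell (-1.04 ± 0.11 and -1.06 ± 0.080). Of 26 BMP and TGF-beta genes, 9 rose and 4 fell (median 0.1). ID1, an inhibitor of helix-loop-helix factors, was at 8.12, 8.46 and 8.09 TPM in the control and 36.97, 34.4 and 43.1 TPM in the SAHA libraries, a log2 change of 2.08 ± 0.083, while the related ID3 changed by -0.65 ± 0.11. Of 10 insulin-like growth factor genes 6 rose and 2 fell (median 0.51), from IGF2R (0.84 ± 0.089), a receptor that clears IGF2, to IGFBP3 (-0.92 ± 0.13), a binding protein. Of 18 KLF and SP factors 4 rose and 5 fell (median 0.03), SP2 (-0.87 ± 0.11) with the largest fall. RB1, the E2F inhibitor, which this line is known to have lost as a functional protein, was not called. It was at 7.71 ± 1.27 TPM in the control and 9.95 ± 0.642 TPM with SAHA (mean ± SD, n = 3), a log2 change of 0.34 ± 0.15 (limma, adjusted p = 0.0694).

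Surface ligands that natural killer and T cells read rose in 8 of 12 tested genes and fell in 2, with a median of 0.65. ULBP2, RAET1G and MICA are ligands of the activating receptor NKG2D. ULBP2 was at 2.82, 2.11 and 3.2 TPM in the control and 23.4, 25.3 and 27.5 TPM in the SAHA libraries, a log2 change of 2.84 ± 0.14. RAET1G was at 2.16, 1.19 and 1.05 TPM in the control and 20.5, 21.8 and 19.8 TPM in the SAHA libraries, a log2 change of 3.16 ± 0.15. MICA was at 22.9, 26.3 and 22.8 TPM in the control and 138, 144 and 139 TPM in the SAHA libraries, a log2 change of 2.5 ± 0.095. In all 3, no SAHA library overlapped a control library. ULBP and RAET1 genes are close relatives, so reads can be divided between them. VTCN1, the T cell inhibitor B7-H4, was at 93.6, 90.3 and 101 TPM in the control and 29.7, 27.3 and 31.6 TPM in the SAHA libraries, a log2 change of -1.65 ± 0.070. Of 18 chemokines, cytokines and NF-kB genes, 4 rose and 7 fell (median -0.06). CCL2, which attracts monocytes, was at 7.84, 10.6 and 9.46 TPM in the control and 1.31, 1.44 and 0.99 TPM in the SAHA libraries, a log2 change of -2.19 ± 0.22. CSF1, the growth factor of macrophages, was at 13.9, 15.5 and 16.7 TPM in the control and 3.01, 2.23 and 2.71 TPM in the SAHA libraries, a log2 change of -2.16 ± 0.12. NFKB2 and IL18 rose (1.33 ± 0.095 and 1.22 ± 0.052).

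Among 22 proteases and inhibitors, 9 rose and 6 fell (median 0.01). MMP2, a gelatinase, was at 1.27, 1.57 and 1.52 TPM in the control and 7.99, 6.97 and 6.41 TPM in the SAHA libraries, a log2 change of 1.72 ± 0.11, against the fall of MMP7. TIMP2, an inhibitor that also helps to activate MMP2, was at 12.9, 11.6 and 13.6 TPM in the control and 50.1, 49.1 and 50.5 TPM in the SAHA libraries, a log2 change of 1.9 ± 0.065. SERPINB5, maspin, was at 4.41, 5.02 and 4.28 TPM in the control and 16.6, 17.4 and 17.98 TPM in the SAHA libraries, a log2 change of 1.72 ± 0.094. Of 4 tested kallikreins, secreted proteases of 1 gene cluster on chromosome 19, 3 fell and none rose (median -1.68). KLK6 was at 21.02, 21.8 and 15.7 TPM in the control and 3.99, 3.79 and 4.04 TPM in the SAHA libraries, a log2 change of -2.04 ± 0.13. KLK5 was at 312, 308 and 274 TPM in the control and 75.99, 78.8 and 76.2 TPM in the SAHA libraries, a log2 change of -1.94 ± 0.066. KLK10 was at 7.16, 7.39 and 5.84 TPM in the control and 1.41, 1.97 and 2.39 TPM in the SAHA libraries, a log2 change of -1.42 ± 0.22.

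Of 16 members of the BCL2 family 8 rose and 4 fell (median 0.23). BMF and BCL2L11 (BIM) trigger cell death by binding its inhibitors. BMF was at 1.82, 3.41 and 3.22 TPM in the control and 6.02, 7.36 and 6.54 TPM in the SAHA libraries, a log2 change of 1.03 ± 0.17. BCL2L11 was at 12.8, 12.6 and 11.6 TPM in the control and 24.3, 21.4 and 24.4 TPM in the SAHA libraries, a log2 change of 0.87 ± 0.083. BAD, of the same class, changed by 0.98 ± 0.078, and BBC3 and BID fell (-0.85 ± 0.18 and -0.56 ± 0.12). Of 29 death receptor, caspase and caspase inhibitor genes 8 rose and 10 fell (median 0.05). TNFRSF21, a death receptor, was at 19.9, 18.2 and 20.03 TPM in the control and 69.1, 63.4 and 71.5 TPM in the SAHA libraries, a log2 change of 1.76 ± 0.071. MLKL, the effector of necroptosis, and XIAP, a caspase inhibitor, changed by -1.44 ± 0.097 and -1.19 ± 0.19. Of 26 thioredoxin and glutathione system genes 13 rose and 6 fell (median 0.15). GLRX, glutaredoxin, was at 16.03, 24.6 and 18.8 TPM in the control and 104, 96.9 and 106 TPM in the SAHA libraries, a log2 change of 2.33 ± 0.13. The cytosolic thioredoxin reductase TXNRD1 rose (0.98 ± 0.082) and the mitochondrial TXNRD2 fell (-1.67 ± 0.097). Of 14 genes often used as references for qPCR 2 rose and 5 fell (median -0.03). ACTB, beta-actin, was at 4389 ± 462 TPM in the control and 5443 ± 76.7 TPM with SAHA, a log2 change of 0.32 ± 0.077. GAPDH, a glycolytic enzyme, was at 4146 ± 302 TPM in the control and 2927 ± 62.6 TPM with SAHA (both mean ± SD, n = 3), a log2 change of -0.5 ± 0.073. The call of ACTB was lost after median-of-ratios scaling (0.24, adjusted p = 0.0696).

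Promoter motif shares varied among lists that moved in the same direction. At least 3 copies of GGGCGG, present in 27.2% of all windows, stood in 52.4% of the 21 available for actin-associated genes, 43.8% of 16 for tubulins and 66.7% of 9 for neuronal genes. They also stood in 41.2% of 17 windows of nucleotide synthesis genes, most of which fell, and in 22.2% of 9 windows of immediate-early genes, most of which rose. The shares were 26.7% of 15 for the cyclins and E2F factors and 18.2% of 22 for splicing regulators. TTTNGCGC, present in 2.78% of all windows, stood in 33.3% of the cyclin and E2F windows and 12.5% of the tubulin windows, and in none of the windows of the nucleotide synthesis, splicing, actin, neuronal and immediate-early lists. These counts are small and were not tested.

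The largest changes among non-coding genes, by the rule for the 3 largest rises and falls, include short RNAs and a pseudogene. Not every gene picked by that rule is given here, and AC138512.1 below was not the largest fall. RPL22P1, a pseudogene of a ribosomal protein gene that still has its protein-coding parent, was at 0, 0 and 0 TPM in the control and 44.1, 85.6 and 68.04 TPM in the SAHA libraries. RNU1-3, a U1 spliceosomal RNA of many copies, was at 0, 0 and 1.41 TPM in the control and 355, 260.3 and 2.05 TPM in the SAHA libraries, and SNORA27, a small nucleolar RNA, at 0, 0 and 0 TPM in the control and 39.99, 0 and 78.4 TPM in the SAHA libraries. AC138512.1, a long intergenic RNA, was at 13.7, 13.7 and 15.99 TPM in the control and 0.33, 1.34 and 0.5 TPM in the SAHA libraries, a log2 change of -3.21 ± 0.19. RNU12, the RNA of the minor spliceosome, was at 15.8, 39.1 and 0 TPM in the control and 0, 0 and 0 TPM in the SAHA libraries. In RNU1-3, SNORA27 and RNU12, libraries of a single group differed from 0 or near 0 to well above 10 TPM, and short RNAs of this kind take high TPM from few reads. The call of SNORA27 was lost in 3 of 18 alternative analyses and that of RNU12 in 11.

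The 24 protein-coding genes with the largest changes were then read in the 6 libraries that had received sonidegib, comparing the combination with sonidegib alone, a contrast that shares no library with SAHA against control. These genes were selected for their size without sonidegib, and that size is therefore no independent measure of them. All 12 of the largest rises were called higher in the sonidegib libraries too, where 17.5% of all tested genes were called higher, with a median log2 change of 1.72 (range 0.71 to 2.69) against 3.66. Of the 12 largest falls, 6 were called lower there, where 21% of all genes were, and the median was -0.42 (range -1.73 to 0.43) against -2.96. CDKN1A was at 11.9 ± 0.369 TPM with sonidegib alone and 58.3 ± 5.89 TPM with the combination (mean ± SD, n = 3), a log2 change of 2.2 ± 0.10. GMPR was at 6.03 ± 0.427 TPM with sonidegib alone and 12.7 ± 1.12 TPM with the combination (mean ± SD, n = 3), a log2 change of 0.96 ± 0.10. OLFM4 was at 82.1 ± 6.8 TPM with sonidegib alone and 84.1 ± 9.82 TPM with the combination (mean ± SD, n = 3), a log2 change of 0.03 ± 0.10, and GAL at 2.46 ± 0.293 TPM with sonidegib alone and 3.69 ± 0.816 TPM with the combination (mean ± SD, n = 3), a log2 change of 0.43 ± 0.18. The difference between the SAHA changes passed limma's test in 12 of the 12 rises and 11 of the 12 falls, the exception being USP41 (difference 3.01, adjusted p = 0.143). Among all tested genes, 31.4% passed. The difference holds the change by which these genes were selected, so their pass rate is no independent result beside that share.

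**Figure D5:**
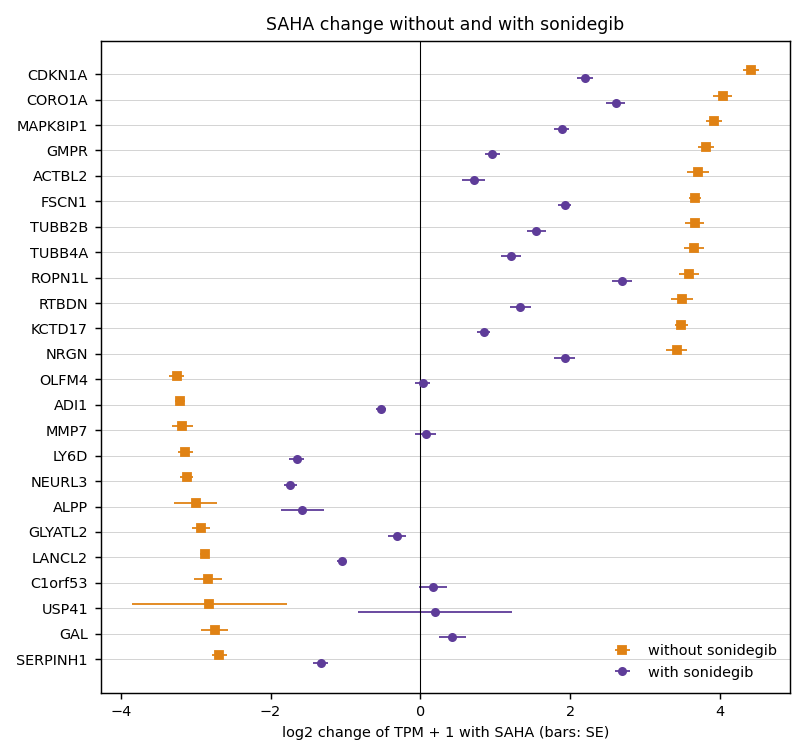
Log2 change of TPM + 1 with SAHA for the 12 largest rises and 12 largest falls, without sonidegib (SAHA minus control) and with it (combination minus sonidegib), bars showing ± 1 SE of the fit. All 24 changes are smaller in size with sonidegib, and 5 of the falls lie at or above 0 there. The genes were selected by their changes without sonidegib.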

How the data were processed

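RNA-seq libraries of MDA-MB-468 cells were made from total RNA extracted with TRIzol, per the labels. The deposited table gives TPM per gene and library, rounded by the authors to 2 decimals; Bowtie2 2.4.1 and GRCh38 are named in the submitters' processing notes, and the quantifier, annotation and strandedness are not given in the sources used here. Genes that overlap on opposite strands are therefore uncertain. Since TPM holds no counts, depth is unknown and values carry no counting interval.

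Genes that averaged at least 1 TPM across 12 libraries were tested on log2(TPM + 1) with limma 3.58.1 (R 4.3.3): 4 group means, 8 residual degrees of freedom, an intensity trend, two-sided tests and Benjamini-Hochberg adjustment over 13937 genes. The combination against sonidegib and the interaction came from the same fit. Simulated data, with changes put into the SAHA libraries only, were used to check SAHA against control and neither of these contrasts. Coordinates and gene types came from GENCODE 29 for the 58611 genes matched, promoters from RefSeq (GRCh38.p14).

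Genes were grouped in 46 lists of 1047 symbols, 1 not found and 877 tested. Named genes are the 12 largest rises and falls among called protein-coding genes with at least 5 TPM in a group and no overlap between libraries, up to 3 rises and 3 falls per list, the 3 largest non-coding rises and falls, and a fixed set; not every such gene is named. The members and lists were chosen with earlier results of these data known. Alternatives were other pseudocounts, filters, scalings, variance settings, a replicate block, the control and SAHA libraries alone, and leaving out each control or SAHA library in turn. The split of the lowest expression class at 1 TPM was chosen after seeing the data.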

Additional observations from a re-analysis of the deposited data

Results flagged for a closer look

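The change with SAHA differed between cells without and with sonidegib, by limma's interaction term, in 23 of the 24 genes with the largest changes, and these are given here for that reason. The difference, on the log2 scale, is the combination minus sonidegib minus the change from control to SAHA. A negative value is a smaller rise with sonidegib, and a positive value is a smaller fall or no fall. OLFM4, MMP7, C1orf53 and GAL did not fall with sonidegib, at log2 changes of 0.03, 0.07, 0.17 and 0.43. Among the rises it was -2.22 for CDKN1A, -1.43 for CORO1A, -2.04 for MAPK8IP1, -2.85 for GMPR, -2.99 for ACTBL2, -1.74 for FSCN1, -2.11 for TUBB2B, -2.44 for TUBB4A, -0.90 for ROPN1L, -2.16 for RTBDN, -2.64 for KCTD17 and -1.49 for NRGN. Among the falls it was 3.29 for OLFM4, 2.68 for ADI1, 3.25 for MMP7, 1.49 for LY6D, 1.38 for NEURL3, 1.42 for ALPP, 2.61 for GLYATL2, 1.83 for LANCL2, 3.0 for C1orf53, 3.17 for GAL and 1.36 for SERPINH1. Their adjusted p lay between 1.4e-07 (ADI1) and 0.0204 (ALPP) over all tested genes, of which 31.4% passed. The genes were chosen for their size in cells without sonidegib, and that size enters the difference itself. Their pass rate therefore cannot be set against the 31.4% as an independent result. Mean levels with sonidegib alone lay on the SAHA side of the control mean in all of these genes but CORO1A, ACTBL2 and MMP7. ADI1, for example, was at 195 TPM in the control and 34.2 TPM with sonidegib alone, and CDKN1A at 4.38 and 11.9 TPM. The part of these starting levels in the differences was not tested. The sonidegib libraries differ from the others in 72 h of pretreatment as well, so drug and time in culture cannot be told apart.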

How the results depend on the processing

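In 18 alternative analyses, all planned, the number of called genes lay between 6408 (genes averaging 5 TPM or more) and 8787 (no filter on low values). Genes called higher ranged from 3383 to 5028 and genes called lower from 3025 to 4309. At least 2-fold higher ranged from 823 to 1613 and at least 2-fold lower from 615 to 1084, the highest counts coming with a pseudocount of 0.1 TPM. Leaving out 1 control or SAHA library at a time gave 7472 to 7684 calls. Higher calls made up 54.2% of all calls, 48.7 to 49.3% after median-of-ratios, 75th percentile or quantile scaling, and 58.0% without mitochondrial and ribosomal RNA genes, so the small excess of rises over falls turns with these scalings. No scaling moved the median log2 change of all genes by more than 0.1. The counts of the 12 largest rises and 12 largest falls called in the same direction with sonidegib were 12 and between 6 and 7 in the 17 analyses that used those libraries. No single library that had received sonidegib was left out in turn.

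Of the 168 tested genes named, 160 kept their direction and their side of the threshold in every alternative that tested them; 16 were not tested among genes averaging 5 TPM or more. The exceptions were USP41, RNU12, SNORA27, KRT6C, HEXIM1 and ACTB, which lost their call in 10, 11, 3, 4, 1 and 1 analyses, and EGFR and RB1, which gained it in 2 each. The majority direction turned or was even in at least 1 analysis for the epithelial lineage factors, junction genes, KLF and SP factors, MYC network, YAP genes, death receptor genes, elongation factors and known responders. List medians took the other sign in at least 1 analysis in 9 of the 40 lists with 5 or more tested genes: known responders, histones, DNA methylation and Polycomb, BMP and TGF-beta, chemokines, death receptors, KLF and SP factors, proteases and reference genes.

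Control and SAHA libraries that share a number did not deviate together over all tested genes (r = -0.026, 0.076 and -0.036). Such values cannot exclude that the numbers pair the libraries. With the replicate number as a block, 8441 genes were called, against 8176 without it. Of these 8441 genes, 4562 were higher and 3879 lower, and 1213 and 798 of them at least 2-fold.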

Other observations

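The calls were spread over all chromosomes. Only protein-coding genes were counted per chromosome, and of all 11995 tested 34.2% rose and 28.9% fell. On chromosomes with at least 100 such genes, the share that rose lay between 28.5% of 515 genes on chromosome 5 and 40.1% of 302 genes on chromosome 22. The share that fell lay between 25% of 665 genes on chromosome 3 and 33.9% of 127 genes on chromosome 21. The median log2 change on these chromosomes lay between -0.12, on chromosome 21, and 0.10, on chromosomes 11, 22 and 8. These shares were not tested against each other.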
